A study of Mus musculus with 4 samples.

Results

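Epididymal adipose tissue of CD1d knockout (KO) mice was compared with that of wild type mice, both kept on a low-fat diet. The comparison takes 3 of the 4 arrays of the series: 2 KO arrays, called KO1 and KO2, and 1 array of wild type mice on the same diet, called the wild type array. The remaining array, of wild type mice fed a high-fat diet, is given beside the results as the high-fat array. Each KO array was set against the wild type array separately, gene by gene. Of 35556 probe sets, 21218 carried 1 gene symbol, and each gene was read by its probe set of highest mean on the 4 arrays. This left 18820 genes, of which 11292 had a mean log2 intensity of at least 5.45 and are called the genes tested.

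The wild type mice were C57BL/6J, stated as 8 weeks old and from a commercial breeder, and the CD1d-/- mice carried a null allele that was crossed onto C57BL/6J over 10 to 12 generations. Mice of matched age ate chow until they were 10 to 11 weeks old. They then received a diet with 10 kcal% fat for 18 to 19 weeks, or one with 45 kcal% fat in the case of the high-fat array. RNA of 4 to 6 mice was pooled per group, so each array averages several animals. Whether KO1 and KO2 were separate pools is not stated in the labels, and p-values therefore measure only the spread between these 2 arrays. Wild type values have no replicate.

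CD1d is an MHC class I-like protein that binds lipids and presents them to natural killer T (NKT) cells. These cells need CD1d to mature in the thymus, so the knockout removes CD1d-restricted NKT cells, and adipose tissue is a site where such cells are common in lean animals. The epididymal fat pad lies against the epididymis, the duct in which sperm mature, and pads are dissected off it.

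The KO arrays were not alike. KO2 was closer to the high-fat array than to the wild type array of its own diet, with Pearson's r across genes of 0.981 against 0.962, whereas KO1 gave 0.934 and 0.970 (genes are not independent replicates). Both arrays are labelled as low-fat, and whether a label or pool was exchanged was not tested, so values of KO2 are those of the array so labelled. Results below are therefore given for each KO array, and those of limma for the KO mean as well. The median gene tested lay off the wild type array by −0.17 on KO1, −0.02 on KO2 and 0.05 on the high-fat array, all on the log2 scale. List medians below are given relative to these shifts and are called relative medians, while levels and differences of single genes are log2 intensities as deposited. The fat cell markers Adipoq, Fabp4, Cidec and Plin1 stood at or above the 99.4th percentile of genes on all 4 arrays. The median log2 intensity of all probe sets on the wild type array was 5.70, and a difference that starts or ends under that level is read as a lower bound.

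Cd1d1, the target of the knockout, fell to background signal in KO1 and KO2. It read 11.80 on the wild type array and 11.80 on the high-fat array, against 3.74 on KO1 and 3.98 on KO2. Both KO arrays lay far below both wild type arrays. The KO mean was 7.95 lower on the log2 scale (standard error 0.32, limma adjusted p = 0.00646, KO n = 2). Cd1d2, the neighbouring copy of Cd1d1, was below the filter for testing, at 4.61 on the wild type array, 4.50 on KO1 and 4.18 on KO2. Genes that load lipids onto CD1d gave no common pattern. B2m, which encodes the light chain shared by CD1d and MHC class I, was at 13.21 on the wild type array, 13.27 on KO1 and 13.30 on KO2. Psap, the precursor of the saposins that hand lipids to CD1d, was at 12.45, 12.28 and 12.88 in the same order. Apart from Cd1d1, the 15 tested genes of this list included 0 that were 1.5-fold apart on KO1 and 4 that were higher on KO2. These were the lysosomal genes Ctss, Ctsl, Lgmn and Gla, of which Ctss, a cathepsin of antigen-presenting cells, was at 8.47 on the wild type array, 8.13 on KO1 and 10.07 on KO2. The high-fat array had 4 of the 15 genes higher too, Ctss among them at 10.31.

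Few genes differed the same way in KO1 and KO2, and among those the largest differences were downward. With limma, which was fitted to all 11292 genes, 5 genes or 0.0443% passed an adjusted p of 0.05, and all 5 were lower in the KO mice: Cd1d1, Spint4, Spint5, Epp13 and Lcn5. By the same limma fit 0 genes were higher, with 41 higher and 51 lower genes at an unadjusted p under 0.05, and the alternatives in limma also called 0 higher genes. The 5 lower calls were less stable: they numbered 0 without the filter, 2 with a 60th percentile filter, 3 with the mean of all probe sets per gene, 4 with quantile normalization or a robust variance model, and 1 with both wild type arrays as one group. The 60th percentile filter removed Spint4, Spint5, Epp13 and Lcn5 before testing. The standard error of a difference was 0.32 at the median gene, so a 2-fold difference between a KO mean and the wild type array is about 3 standard errors. By size, 218 genes (1.93% of genes tested) were at least 1.5-fold higher and 567 (5.02%) at least 1.5-fold lower on KO1. On KO2 the counts were 626 higher (5.54%) and 519 lower (4.6%). Both KO arrays together had 66 genes higher (0.584%) and 87 lower (0.77%). Counts within the gene lists below are to be read beside these shares. The 2 differences share the wild type array, so a value that is unusual on that array appears in both.

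The balance of directions on KO1 turned with the scaling. After each array was centred on the median of its tested genes, KO1 had 419 genes higher and 171 lower, and after quantile normalization 383 higher and 230 lower. The split on both KO arrays moved from 66 higher and 87 lower to 82 and 50 with centring. KO2 kept its balance, with 654 higher and 482 lower genes after centring. At a threshold of 4-fold, 0 genes were higher and 14 lower on both KO arrays. Genes of low signal made up most of the shared counts: among the 3764 tested genes of lowest mean level, 44 were higher and 59 lower on both KO arrays, against 5 and 4 among the 3764 of highest level.

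**Figure D1:**
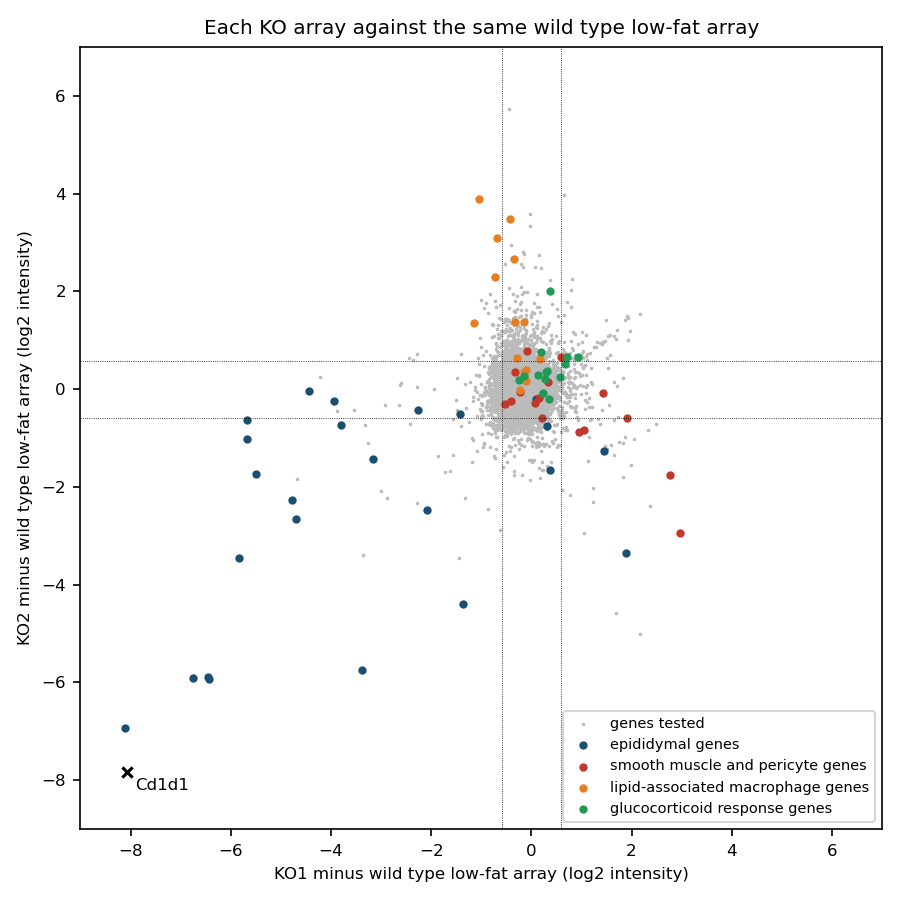
Log2 intensity minus that of the wild type array, on KO1 (horizontal axis) and KO2 (vertical axis), for the 11292 genes tested (grey) with 4 gene lists coloured and dotted lines at 1.5-fold. Epididymal genes spread down and to the left, lipid-associated macrophage genes upward and smooth muscle genes to the lower right, and Cd1d1 is the cross at the bottom left.

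Genes of the epididymis gave the largest shared differences after Cd1d1. The list holds defensins, protease inhibitors and lipocalins that the duct secretes onto sperm. Of its 66 members with a value 24 were tested, and since the filter uses the mean of all arrays, a member that passed through a high wild type level alone had to appear lower elsewhere, so the counts describe these arrays only. On KO1, 19 of the 24 were at least 1.5-fold lower and 2 higher. KO2 likewise had 19 lower, but 0 higher, and 15 genes were lower on both. The relative median was −3.69 on KO1, −1.68 on KO2 and −4.98 on the high-fat array, where 24 of the 24 were lower (3.82% of all genes tested were at least 1.5-fold lower there, and 7.72% higher). The summed intensity of all 66 members was, on the log2 scale, 14.64 on the wild type array, 12.99 on KO1, 12.63 on KO2 and 10.32 on the high-fat array. How much epididymal RNA each pool held was not tested. In such bulk samples, fewer cells of a type and less RNA per cell cannot be told apart.

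Besides Cd1d1, the genes that passed limma were all epididymal. Spint4, a Kunitz-type protease inhibitor, was at 11.35 on the wild type array, 3.19 on the high-fat array, 3.25 on KO1 and 4.43 on KO2 (standard error 0.53, limma adjusted p = 0.0292). Spint5, its neighbour in the same inhibitor cluster, was at 10.75, 4.22, 4.31 and 4.82 in that order (adjusted p = 0.0193). Each of these genes was high on the wild type array only and under the array median on the KO arrays, or close to it. Lcn5, a retinoic acid-binding lipocalin of the epididymis, was at 11.34 on the wild type array, 4.32 on the high-fat array, 4.89 on KO1 and 5.45 on KO2 (adjusted p = 0.0193). Epp13, an epididymal protein gene, was at 11.80, 5.03, 5.05 and 5.89 in the same order (adjusted p = 0.0292). Since the high-fat array, which carries the wild type allele, was as low as the KO arrays, these 4 genes did not separate the genotypes.

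The start regions of the called genes were read for a shared element because the genes moved together. RefSeq promoter windows of 250 bases before the start (build GRCm38.p6) were listed for 4 of the 5 called genes, with 2 windows for Epp13 and 1 for each of the others. The androgen and glucocorticoid receptor half-site AGAACA, searched on both strands, was in 0 of these 5 windows, against 16.1% of all 32851 windows. TATAAA, the TATA box core, also searched on both strands, was in 1 of the 5, against 12.4% of all windows. A match is a description of letters and not a site. In the windows of Lcn5, at chr2:25657702-25657951, Spint4, at chr2:164698251-164698500, and Spint5, at chr2:164715055-164715304, all on the plus strand, capitals mark TATAAA.
Lcn5: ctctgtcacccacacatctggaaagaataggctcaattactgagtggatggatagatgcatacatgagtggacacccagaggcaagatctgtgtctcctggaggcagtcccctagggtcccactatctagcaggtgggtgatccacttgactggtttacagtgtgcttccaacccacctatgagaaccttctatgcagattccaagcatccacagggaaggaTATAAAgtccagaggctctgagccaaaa
Spint4: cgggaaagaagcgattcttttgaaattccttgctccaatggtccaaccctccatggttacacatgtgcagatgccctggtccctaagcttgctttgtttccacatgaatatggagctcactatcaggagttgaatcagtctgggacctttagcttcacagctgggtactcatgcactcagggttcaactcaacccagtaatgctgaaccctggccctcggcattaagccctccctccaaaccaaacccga
Spint5: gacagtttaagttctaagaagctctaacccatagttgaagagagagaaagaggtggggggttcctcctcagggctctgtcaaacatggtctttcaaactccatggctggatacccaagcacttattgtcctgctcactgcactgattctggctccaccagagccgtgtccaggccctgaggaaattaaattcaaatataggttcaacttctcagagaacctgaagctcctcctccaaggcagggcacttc

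Which epididymal genes were high differed between the KO arrays. KO2 held genes that KO1 lacked. Adam7, a membrane protein of the metalloprotease-like family, was at 9.35 on the wild type array, 3.68 on KO1 and 8.71 on KO2. Cuzd1 was at 10.27, 4.60 and 9.26 in the same order, and the beta-defensin gene Defb26 at 8.84, 4.40 and 8.81. Defb22, the defensin that coats sperm, showed the same order, at 7.59, 3.66 and 7.34. Conversely, Defb42 was at 8.69 on the wild type array, 10.58 on KO1 and 5.34 on KO2. Defb43 was at 7.59, 9.03 and 6.32, and Defb30 at 9.56, 8.20 and 5.16. Spink8, a Kazal-type protease inhibitor, was at 11.30, 11.68 and 9.63. The high-fat array held 6.52 for Spink8 and at most 5.37 for the other 23 genes tested.

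**Figure D2:**
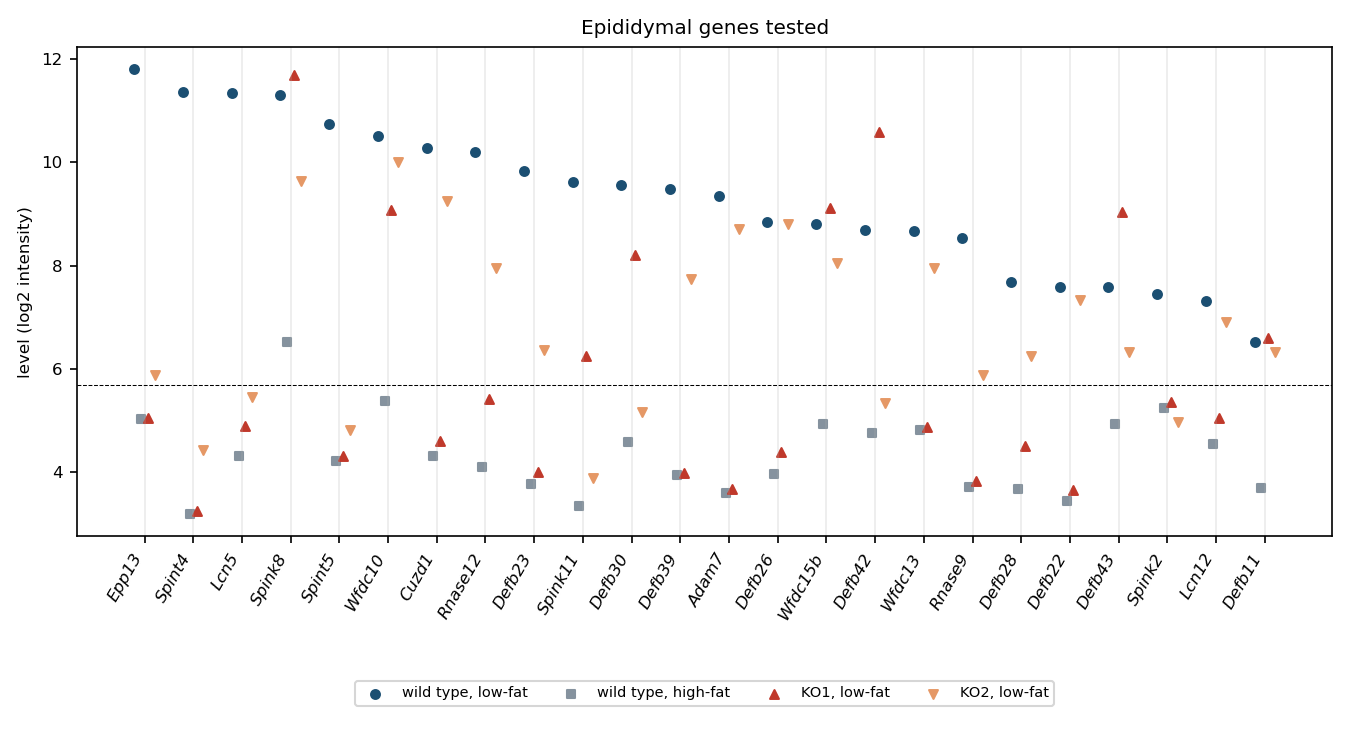
Level (log2 intensity) of the 24 epididymal genes tested on each of the 4 arrays, 1 point per array, ordered by the wild type array; the dashed line is the median of all probe sets on that array, 5.70. The wild type low-fat array is high throughout, the high-fat array lies below it for each gene, and the KO arrays are high for different genes.

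Outside the epididymal families, which were collected by symbol, the lowest genes shared by both KO arrays included 2 further epididymal genes and a set of secreted and enzyme genes. Spag11a, a defensin-like sperm-binding protein gene, was at 6.99 on the wild type array, 5.26 on KO1 and 5.30 on KO2. Eddm3b, an epididymal secretory ribonuclease-like gene, was at 7.31, 5.68 and 5.64. C4bp, an inhibitor of complement, was at 7.96, 5.07 and 5.73. The high-fat array was low for these 3 genes as well, with 5.15 for Spag11a, 4.23 for Eddm3b and 5.01 for C4bp.

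Faim2, an inhibitor of Fas-driven cell death, was at 6.76 on the wild type array, 4.90 on KO1 and 5.40 on KO2, with 5.12 on the high-fat array. Mgst2, a microsomal glutathione transferase, was at 8.24, 7.17 and 6.98, and Nqo1, a quinone reductase of the oxidative stress response, at 6.60, 5.80 and 5.69. Both enzymes were also lower on the high-fat array, at 7.73 and 5.73. The matrix metalloprotease gene Mmp9 was at 7.57 on the wild type array, 6.62 on KO1 and 6.39 on KO2, and the pantetheinase gene Vnn1 at 9.65, 8.89 and 8.85. Ramp3, a partner of the calcitonin receptor-like receptor, was at 7.23, 6.48 and 5.87. The platelet chemokine precursor gene Ppbp was at 8.02 on the wild type array, 7.20 on KO1 and 6.84 on KO2. Celsr2, a cadherin of planar cell polarity, was at 7.22, 6.27 and 6.11, and the chromatin remodelling subunit gene Smarcd3 at 7.76, 6.98 and 6.97. The high-fat array was below the wild type array for these genes too, at 6.92 for Mmp9, 9.04 for Vnn1 and 4.56 for Ramp3. It read 7.15 for Ppbp, 6.50 for Celsr2 and 6.38 for Smarcd3. None of these genes passed limma. Of the 87 genes lower on both KO arrays, 19 belonged to the epididymal families, and 35 were under the array median on at least 1 KO array. On the high-fat array 52 of the 87 were also at least 1.5-fold lower, 33 were within 1.5-fold and 2 were higher. Over all genes tested 3.82% were at least 1.5-fold lower there. All these differences share the wild type array.

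In a smaller set of genes both KO arrays, which share the low-fat diet, lay at least 1.5-fold beyond the wild type arrays of both diets. It held 10 lower genes (0.0886% of genes tested) and 39 higher genes (0.345%). The lower side, after Cd1d1, was led by Lrmda, which encodes a leucine-rich melanocyte differentiation protein. Lrmda was at 9.54 on the wild type array and 9.25 on the high-fat array, against 6.17 on KO1 and 6.14 on KO2. The difference of the KO mean was −3.38 (standard error 0.31) with a limma adjusted p = 0.0962, which misses the threshold. With each array centred, or with a filter at the 60th percentile, Lrmda passed. Gm3893, a predicted gene chosen after its values were seen, was at 8.51 and 8.59 on the wild type arrays and 6.22 and 6.18 on KO1 and KO2.

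The other lower genes of this set had smaller differences. Sfrp2, a secreted modulator of Wnt signalling, was at 8.96 on the wild type array and 8.89 on the high-fat array, against 7.78 and 7.48 on KO1 and KO2. Thbs3, which encodes a thrombospondin of the matrix, was at 7.26 and 7.30 against 6.08 and 6.26. Tnk2, a non-receptor tyrosine kinase, was at 7.86 and 7.64 against 7.005 and 6.97. The rule of this set itself requires that the KO and wild type arrays do not overlap. Opcml, a cell adhesion protein of the immunoglobulin family, was at 7.37 and 7.46 against 6.77 and 6.75, and the metalloprotease gene Adamts16 at 6.34 and 6.29 against 5.62 and 5.43. The last 2 genes, Svs2 and Svs5, encode secretions of the seminal vesicle and are taken with the gene lists of other tissues.

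On the higher side, 17 of the 39 were predicted genes or small RNAs and 6 were olfactory or vomeronasal receptors, and the 15 named here come from the rest. Fkbp5, a co-chaperone that glucocorticoids induce, was at 7.84 on the wild type array and 7.53 on the high-fat array, against 8.77 on KO1 and 8.50 on KO2 (standard error of the KO mean's difference 0.32). Wdfy1, an endosomal adaptor, was at 6.34 and 6.22 against 6.99 and 7.31. Its expression is known to differ between mouse strains, and it stands in the list of substrain-variable genes together with Nnt, at 7.74 on the wild type array, 7.48 on KO1 and 7.50 on KO2. The fraction of the genome shared by the KO and wild type colonies was not tested. Smim24 was at 7.81 and 7.64 against 8.47 and 8.58, and Ly6f, a member of the Ly6 surface protein family, at 7.94 and 4.87 against 8.97 and 8.73. Plet1, a surface protein of epithelial progenitors, was at 5.77 and 5.25 against 6.75 and 6.40, and Cwh43, which remodels membrane lipid anchors, at 5.71 and 4.26 against 6.39 and 6.42.

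The Y-linked multicopy genes Srsy and Sly, which are expressed in spermatids, were also in this set. Srsy was at 6.68 on the wild type array and 6.25 on the high-fat array, against 8.86 on KO1 and 8.21 on KO2. Sly was at 7.31 and 7.25 against 8.75 and 8.28. They have near-identical copies and carried 13 and 8 probe sets, of which only that of highest mean was read for each gene. The values of a single copy are therefore uncertain. Single-copy genes of the Y chromosome did not share the pattern. Kdm5d was at 8.04 on the wild type array, 7.64 on KO1 and 7.80 on KO2, and Eif2s3y at 8.94, 8.75 and 8.96.

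**Figure D3:**
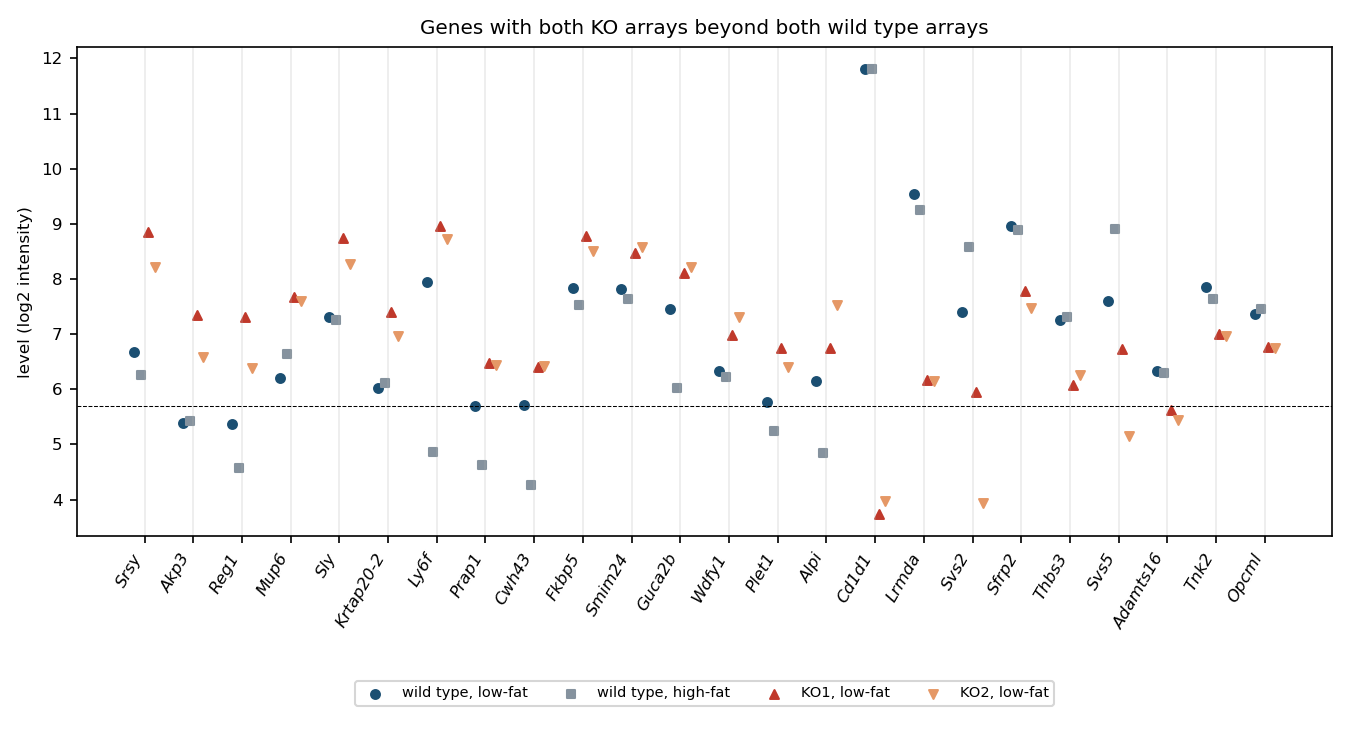
Level (log2 intensity) on each of the 4 arrays, 1 point per array, of the 15 higher and 9 lower genes named from those with both KO arrays at least 1.5-fold beyond both wild type arrays; the dashed line marks 5.70, the median probe set of the wild type array. Cd1d1 and Lrmda show the widest gaps between genotypes, and most higher genes differ by under 2 units.

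Some genes of the intestinal lining were among the highest shared by both KO arrays. Of 10 intestinal genes tested, 4 were at least 1.5-fold higher on KO1, 7 on KO2 and 3 on both, and 0 were lower. These counts depend on the filter, which uses the mean of all arrays. The 3 members below it included Reg3b, at 5.42 on the wild type array, 4.96 on KO1 and 4.73 on KO2, and Reg3g, at 4.67, 4.28 and 4.04, both at least 1.5-fold lower on KO2. The relative median of the tested genes was 0.34 on KO1, 0.77 on KO2 and −1.04 on the high-fat array, on which 8 of the 10 were lower. Akp3, an intestinal alkaline phosphatase, was at 5.39 on the wild type array, 7.35 on KO1 and 6.59 on KO2. Reg1, a lectin secreted by pancreas and gut, was at 5.38, 7.31 and 6.39. Both started under the array median on the wild type array and passed the filter through their KO levels, and no gene of this list passed limma. Guca2b, the gut hormone uroguanylin, was at 7.45, 8.11 and 8.21, and the brush border enzyme gene Sis (sucrase-isomaltase) at 6.36, 6.53 and 7.93. Other genes of this type outside the list were Alpi, at 6.14, 6.75 and 7.53, and Prap1, at 5.69, 6.47 and 6.44. The source of these transcripts in a fat pad was not tested.

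Some liver-type transcripts were higher on the KO arrays, and most were higher on the high-fat array. Of 11 tested genes, 6 were at least 1.5-fold higher on KO1, 5 on KO2 and 3 on both, and 9 on the high-fat array, and none passed limma. The relative medians were 0.91, 0.45 and 1.37 in that order. Mup6, a major urinary protein, was at 6.20 on the wild type array, 7.68 on KO1 and 7.61 on KO2, with 6.64 on the high-fat array. Major urinary protein genes are near-identical copies, so the share of each is uncertain. Fgb, a fibrinogen chain, was at 6.75, 7.58 and 7.56 on the wild type array and KO1 and KO2, and Alb, serum albumin, at 10.92, 11.24 and 11.25. The high-fat array exceeded both KO arrays for these, at 8.18 for Fgb and 12.20 for Alb. Cyp2e1, a cytochrome P450 of liver and fat, was not higher, at 13.16 on the wild type array, 12.99 on KO1, 12.91 on KO2 and 12.70 on the high-fat array.

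A pair of genes that glucocorticoid hormones induce, Fkbp5 and Tsc22d3, were at least 1.5-fold higher on both KO arrays. Of 14 tested, 3 were at least 1.5-fold higher on KO1, 4 on KO2 and 2 on both, with 0 lower on either. The relative median was 0.48 on KO1 and 0.35 on KO2, against 0.08 on the high-fat array. Tsc22d3 (GILZ), an anti-inflammatory transcription regulator, was at 9.40 on the wild type array, 10.12 on KO1 and 10.07 on KO2, with 9.70 on the high-fat array. Zbtb16, the zinc finger factor PLZF, was at 10.29, 10.97 and 10.81 with 10.23 on the high-fat array. PLZF also directs NKT cell development, so it stands in both gene lists, and its level on the wild type array was at the 95.0th percentile of genes. Per1, a clock gene that glucocorticoids induce, was at 8.53, 9.10 and 8.78. Cdkn1a, the cell cycle inhibitor p21, followed the high-fat array more closely on KO2, at 8.55, 8.92 and 10.56 with 9.88 on the high-fat array. None of the 14 passed limma.

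The RefSeq table listed 23 promoter windows for 13 of these 14 genes, and AGAACA or its reverse complement lay in 5 of the 23 windows (21.7%), against 16.1% of all windows. Fkbp5 had 1 window, at chr17:28486150-28486399 on the minus strand, with 0 matches. Tsc22d3 had 3 windows and a match in 1 of them, at chrX:140600523-140600772 on the minus strand. These are shown because both genes were at least 1.5-fold higher on both KO arrays, with the half-site in capitals.
Fkbp5: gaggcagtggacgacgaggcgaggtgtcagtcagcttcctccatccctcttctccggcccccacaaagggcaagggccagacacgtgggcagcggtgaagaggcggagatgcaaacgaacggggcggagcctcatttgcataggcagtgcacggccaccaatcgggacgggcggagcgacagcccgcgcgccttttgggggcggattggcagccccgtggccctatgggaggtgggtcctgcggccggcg
Tsc22d3: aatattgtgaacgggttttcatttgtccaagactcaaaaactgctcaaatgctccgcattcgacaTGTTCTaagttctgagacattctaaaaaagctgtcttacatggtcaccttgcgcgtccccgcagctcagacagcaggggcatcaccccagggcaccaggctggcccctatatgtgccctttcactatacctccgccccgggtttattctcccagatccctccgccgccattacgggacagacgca

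Further genes among the highest on both KO arrays had no common type. S100a8, a calcium-binding protein of neutrophils, was at 5.88 on the wild type array, 6.66 on KO1 and 7.56 on KO2. Its partner S100a9 was at 5.16, 6.88 and 5.23. Acer3, a ceramidase, was at 6.73, 8.19 and 7.72, with 7.90 on the high-fat array. Ada, the adenosine deaminase gene, was at 6.16, 6.96 and 7.01, and Rnf128, the ubiquitin ligase GRAIL that restrains T cell activation, at 6.13, 6.84 and 7.90. None of these genes passed limma. The tight junction gene Cldn1 was at 5.22, 6.32 and 5.95, and the keratin-associated protein gene Krtap20-2 at 6.03, 7.40 and 6.97. Slc38a3, a glutamine transporter, was at 5.58, 6.59 and 6.53. The integrin gene Itgad, expressed by macrophages, was at 5.81 on KO1 and 7.26 on KO2 and under the array median on the wild type array. The high-fat array was also at least 1.5-fold higher for Rnf128, Slc38a3 and Itgad, at 8.21, 7.07 and 6.98. For S100a8, S100a9, Ada, Cldn1 and Krtap20-2 it was within 1.5-fold of the wild type array. Of the 66 genes higher on both KO arrays, 26 were under the array median on the wild type array. On the high-fat array 18 of the 66 were at least 1.5-fold higher, 42 were within 1.5-fold and 6 were lower. Over all genes tested 7.72% were at least 1.5-fold higher there.

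Smooth muscle genes were high on KO1. Of 16 smooth muscle and pericyte genes tested, 7 were at least 1.5-fold higher and 0 lower on it, whereas KO2 had 2 higher and 5 lower. The relative medians were 0.45 and −0.25. Cnn1, the contractile protein calponin, was at 8.05 on the wild type array, 11.03 on KO1 and 5.12 on KO2. Actg2, the smooth muscle actin of gut and ducts, was at 6.93, 9.70 and 5.17. The wild type array lay between the KO arrays for both. Tagln, an actin-binding protein, was at 8.25, 10.16 and 7.65, and Des, the intermediate filament desmin, at 7.93, 9.35 and 7.86. Acta2, which vascular smooth muscle also makes, differed less, at 11.71, 12.04 and 11.85, and so did the pericyte gene Rgs5, at 9.96, 9.55 and 9.71.

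Genes of ducts derived from the Wolffian duct and of sperm were high on KO1 as well. The 5 tested Wolffian duct genes had 3 at least 1.5-fold higher on KO1 and 2 lower on KO2. Pax8, a transcription factor of kidney and genital ducts, was at 7.36 on the wild type array, 8.73 on KO1 and 6.65 on KO2. Pax2, a related factor, was at 6.01, 6.63 and 5.57. Of 8 sperm genes, 4 were higher and 1 lower on KO1, and 1 was higher and 3 lower on KO2. Both sets of counts depend on the filter, which uses the mean of all arrays, KO1 included. Tnp1, a transition protein gene counted as higher on KO1, was above the array median on KO1 only. It was at 5.26 on the wild type array, 6.46 on KO1 and 4.88 on KO2. Prm1, the protamine that packs sperm DNA, was at 8.51, 9.98 and 7.36, with 8.63 on the high-fat array, and the transition protein gene Tnp2 at 5.79, 7.51 and 5.21. Further genes at the top of KO1 were Pcp4, a calmodulin regulator, at 9.87, 12.04 and 4.86, and Cited1, a transcription coactivator, at 7.21, 9.58 and 4.83. Ptgs2, the inducible cyclooxygenase that the vas deferens also makes, was at 10.72, 12.41 and 6.14. The drug exporter gene Abcg2 was at 7.79, 10.28 and 7.08. The part of these ducts in the difference between the KO arrays was not tested.

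Seminal vesicle genes differed in another order. Svs2, the main clotting protein of the seminal vesicle, was at 7.40 on the wild type array and 8.59 on the high-fat array, against 5.95 on KO1 and 3.94 on KO2. Svs5 was at 7.61 and 8.90 against 6.74 and 5.16. Both genes were lower on both KO arrays than on both wild type arrays, and limma gave an adjusted p of 1 for each. At the bottom of KO1, outside the epididymal families, lay 3 genes that were chosen after their values were seen and that KO2 kept. Ces5a, a carboxylesterase, was at 9.07 on the wild type array, 4.85 on KO1 and 9.31 on KO2. Ptgds, the prostaglandin D synthase, was at 8.28, 5.67 and 8.41, and Npy, neuropeptide Y, at 7.81, 5.37 and 8.45. The high-fat array was low for these genes too, at 4.23 for Ces5a, 6.14 for Ptgds and 5.36 for Npy.

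Mesothelial genes, which mark the sheet of cells that covers the fat pad, were lower on KO1. Of 13 tested, 7 were at least 1.5-fold lower and 3 higher there, and 1 each way on KO2, with relative medians of −0.58 and −0.14. Upk3b was at 9.35 on the wild type array, 8.19 on KO1 and 9.19 on KO2, and the transcription factor gene Wt1 at 7.70, 6.81 and 7.36. The 3 higher genes were the simple-epithelium keratins Krt8, Krt18 and Krt19, which duct epithelium also makes. Krt19 was at 7.94, 8.63 and 7.16.

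KO2 alone was high in macrophage genes. Of 21 pan-macrophage markers, 12 were at least 1.5-fold higher and 0 lower on KO2, against 0 higher and 3 lower on KO1. The relative medians were 0.66 on KO2, −0.14 on KO1 and 0.78 on the high-fat array. Adgre1, the surface receptor F4/80, was at 8.83 on the wild type array, 8.23 on KO1, 9.95 on KO2 and 10.22 on the high-fat array. Cd68, a lysosomal membrane protein, was at 10.09, 9.53, 11.28 and 11.62 in that order, and Csf1r, the receptor for the macrophage growth factor, at 9.77, 9.31, 10.34 and 10.48. KO1 was lowest and the high-fat array highest for 20 of the 21 markers, the exception being the efferocytosis receptor gene Mertk, chosen after its values were seen. This order was read on unshifted levels, with the median gene tested at −0.17 on KO1 and 0.05 on the high-fat array. The share of all genes tested with this order was not counted. Set against the median gene, 5 of the 21 were higher on KO1, and 21 on KO2 and on the high-fat array.

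The lipid-associated macrophage genes, which mark the macrophages that crowd around dying fat cells in obesity, differed most. Of 14 tested, 10 were at least 1.5-fold higher on KO2 and 10 on the high-fat array, whereas 0 were higher and 4 lower on KO1. The relative median was 1.38 on KO2, 1.53 on the high-fat array and −0.13 on KO1. Trem2, a lipid-sensing receptor, was at 6.86 on the wild type array, 6.52 on KO1, 9.54 on KO2 and 9.94 on the high-fat array. Atp6v0d2, a lysosomal proton pump subunit, was at 6.28, 5.23, 10.17 and 10.64, and Mmp12, macrophage elastase, at 7.01, 6.59, 10.49 and 11.28. Gpr50, an orphan receptor related to the melatonin receptors, was the highest of the tested genes on KO2 relative to the wild type array, at 4.33, 3.89, 10.06 and 10.24, and its wild type level was under the array median. The labels place KO2 on the low-fat diet, and the part of the diet or pool in these values was not tested.

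**Figure D4:**
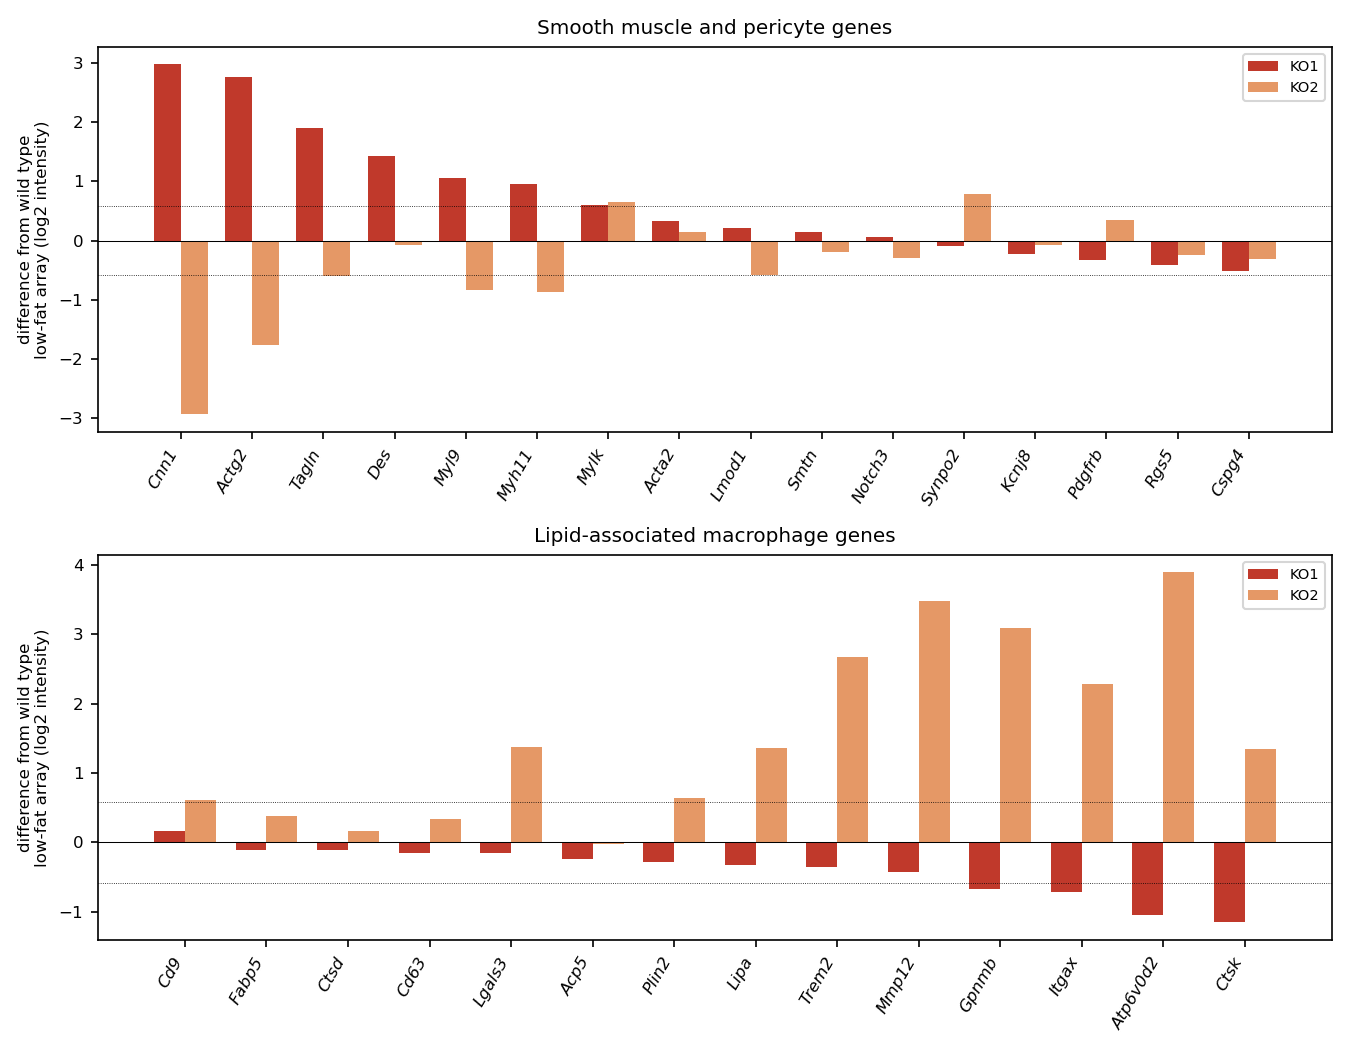
Log2 intensity minus that of the wild type array, on KO1 (dark bars) and KO2 (light bars), for 16 smooth muscle and pericyte genes (top) and 14 lipid-associated macrophage genes (bottom), with dotted lines at 1.5-fold. The leading smooth muscle genes are above 0 on KO1 and mostly below 0 on KO2, and the macrophage genes run the other way.

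Markers of resident and alternatively activated macrophages showed no such pattern. Of 17 tested, 0 were higher on either KO array, 4 were lower on KO1 and 2 on KO2, and the same 2 were lower on both. These were Timd4, a receptor for dying cells on resident macrophages, at 6.89 on the wild type array, 6.25 on KO1 and 6.17 on KO2, and the eosinophil-attracting chemokine gene Ccl24, at 7.60, 6.97 and 6.80. The high-fat array lay between, at 6.50 for Timd4 and 7.31 for Ccl24. Mrc1, the mannose receptor CD206, was at 9.54, 9.09 and 9.97, and Retnla, a secreted marker of alternative activation, at 12.01, 11.96 and 11.81. Neither Timd4 nor Ccl24 passed limma.

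Acute phase genes were mostly higher on KO2. Of 11 acute phase genes, 7 were at least 1.5-fold higher on KO2 and 1 on KO1, with 0 lower on either. Saa3, serum amyloid A of fat and macrophages, was at 6.83 on the wild type array, 6.43 on KO1 and 9.78 on KO2. Lcn2, an iron-scavenging lipocalin, was at 7.81, 7.92 and 9.76, above the high-fat array at 8.37. Hp, haptoglobin, was at 12.08, 11.91 and 13.18. Inflammatory cytokine and chemokine genes had no common direction: of 7 tested, 1 was higher and 2 lower on KO1, and 2 were higher and 1 lower on KO2. The chemokine gene Ccl2, which draws monocytes into fat, was at 7.79, 6.82 and 8.48, lowest on KO1, whereas Ptgs2, described above, was highest on KO1 and lowest on KO2. Of 22 lysosomal genes 7 were higher on KO2 and 1 lower on KO1. Of 16 cell cycle genes 6 were higher on KO2 and 3 lower on KO1. Mki67, the proliferation antigen Ki-67, was at 5.88, 5.22 and 6.93.

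Most lymphocyte markers were near background. Of 32 genes of T, NKT and NK cells with a value, 12 were tested, and 22 of the 32 lay under the array median on the wild type array. The relative medians were −0.07 on KO1 and −0.08 on KO2. Among the 12, 1 was at least 1.5-fold higher and 2 lower on KO1, and 0 were 1.5-fold apart on KO2. Cd3e, a chain of the T cell receptor complex, was at 6.39 on the wild type array, 5.95 on KO1 and 6.19 on KO2. Klrb1c, the NK1.1 antigen of NK and NKT cells, was below the filter, at 4.21, 4.34 and 4.32. Cd2, an adhesion receptor of T cells, was at 6.79, 5.79 and 6.51, and Ccl5, a chemokine of activated T cells, at 8.04, 7.85 and 8.16. No gene of this list passed limma.

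Of 11 genes of regulatory T cells and type 2 cytokines, 4 were tested. Il33, the alarmin that sustains regulatory T cells in fat, was at 6.28 on the wild type array, 5.52 on KO1 and 6.03 on KO2. Gata3, which T cells share with duct epithelium, was at 7.22, 8.46 and 5.20, the same order as the smooth muscle and duct genes. Of 6 B cell genes tested 2 were lower on KO1, among them Ighm, the IgM heavy chain, at 7.11, 6.26 and 6.69. MHC class II genes differed little. H2-Ab1 was at 11.18, 10.96 and 11.57. In the interferon response list 1 of 16 genes was lower on KO1 and 1 higher on KO2. These were Iigp1, an immunity-related GTPase, at 7.41, 6.43 and 6.88, and Ifit1, an RNA-binding antiviral protein, at 6.52, 6.77 and 7.17. Both counts are near the shares of all genes tested, 5.02% lower on KO1 and 5.54% higher on KO2.

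Genes of the fat cell itself were close to the wild type array on KO1, and some were higher on KO2. Of 15 adipocyte identity genes 0 were 1.5-fold apart on KO1, and on KO2 only Gpd1 was, a glycerol phosphate dehydrogenase, at 11.30 on the wild type array, 10.93 on KO1 and 12.19 on KO2. Pparg, the master regulator of fat cell formation, was at 11.55, 11.38 and 11.53. Adipoq, which encodes adiponectin, was at 13.18, 13.19 and 13.03. Lep, the satiety hormone leptin that rises with fat mass, was at 11.85, 11.97 and 12.94, with 12.85 on the high-fat array. Of 7 adipose expansion genes 3 were higher on KO2 and 0 on KO1: Lep, Mest, an imprinted marker of fat cell growth, at 11.85, 11.87 and 12.68, and the Wnt inhibitor gene Sfrp5, at 10.77, 10.46 and 11.74.

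The study's title names insulin resistance, and the insulin pathway differed little on either KO array. Over all genes tested, 1.93% were at least 1.5-fold higher and 5.02% lower on KO1, and 5.54% and 4.6% on KO2. Of 22 genes of insulin signalling and glucose uptake, 0 were at least 1.5-fold higher on either KO array. On each KO array 1 gene was lower, which is near the share of all genes. On KO1 it was the receptor-binding inhibitor gene Grb14, at 8.09 on the wild type array, 7.47 on KO1 and 7.93 on KO2. On KO2 it was Irs1, an insulin receptor substrate, at 9.10, 8.72 and 8.51. Insr, the insulin receptor, was at 10.43, 10.38 and 10.02, and Slc2a4, the glucose transporter GLUT4, at 9.53, 9.39 and 9.52. The relative medians of the list were −0.01 and 0.03. Transcript levels do not measure phosphorylation of these proteins.

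Lipid storage and breakdown genes had few shared differences. Of 10 lipolysis genes, 2 were at least 1.5-fold lower on each KO array and 0 higher. Npr1, the natriuretic peptide receptor that stimulates lipolysis, was lower on both, at 8.22 on the wild type array, 7.45 on KO1 and 7.61 on KO2, with 8.10 on the high-fat array. Hcar2, a receptor that restrains lipolysis, was at 7.92, 7.29 and 7.39. The lipase genes themselves were near the wild type array: Pnpla2 at 12.96, 12.90 and 12.86, and Lipe at 12.70, 12.69 and 12.75. In fatty acid and triglyceride synthesis, 0 of 20 genes were 1.5-fold apart on KO1, while 3 were higher and 1 lower on KO2. Scd2, a fatty acid desaturase, was at 10.76, 10.63 and 12.19, and Acaca, acetyl-CoA carboxylase, at 11.31, 10.88 and 10.43. Cholesterol synthesis had 0 of 17 genes apart on KO1 and 5 higher on KO2, with Insig1 at 10.64, 10.29 and 11.68.

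Mitochondrial and ribosomal genes differed between the KO arrays. The 75 oxidative phosphorylation genes had a relative median of 0.15 on KO1 and −0.32 on KO2, with −0.40 on the high-fat array. On KO2 16 of them were at least 1.5-fold lower, and 0 were apart on KO1. Ndufa1, a subunit of complex I, was at 8.59 on the wild type array, 8.52 on KO1 and 7.60 on KO2. The 68 ribosomal protein genes had relative medians of 0.27, −0.22 and −0.35 and 4 genes lower on KO2. Genes of branched-chain amino acid breakdown had relative medians of −0.06, −0.34 and −0.40, and 2 of 14 were lower on KO2. In the circadian clock list, 3 of 14 genes were lower on KO1 and 1 on both. This was Npas2, an activator of the clock, at 7.89, 6.65 and 7.22, with 7.70 on the high-fat array.

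Matrix and vessel genes completed the picture of the tissue. Of 25 collagen and matrix genes, 5 were at least 1.5-fold lower on KO1 and 5 higher on KO2, and 0 were apart on both. Mmp2, a gelatinase of fibroblasts, was at 9.45 on the wild type array, 8.74 on KO1 and 10.37 on KO2. Col6a3, a collagen VI chain of fat, was at 8.29, 7.50 and 8.75. Of 13 progenitor and fibroblast genes 1 was lower on both KO arrays, Pi16, a marker of early progenitors, at 8.40, 7.59 and 7.67, with 8.07 on the high-fat array. In the endothelial list 0 of 18 genes were 1.5-fold apart on either KO array. Cdh5, the adhesion protein of endothelial junctions, was at 10.30, 10.30 and 10.32.

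**Figure D5:**
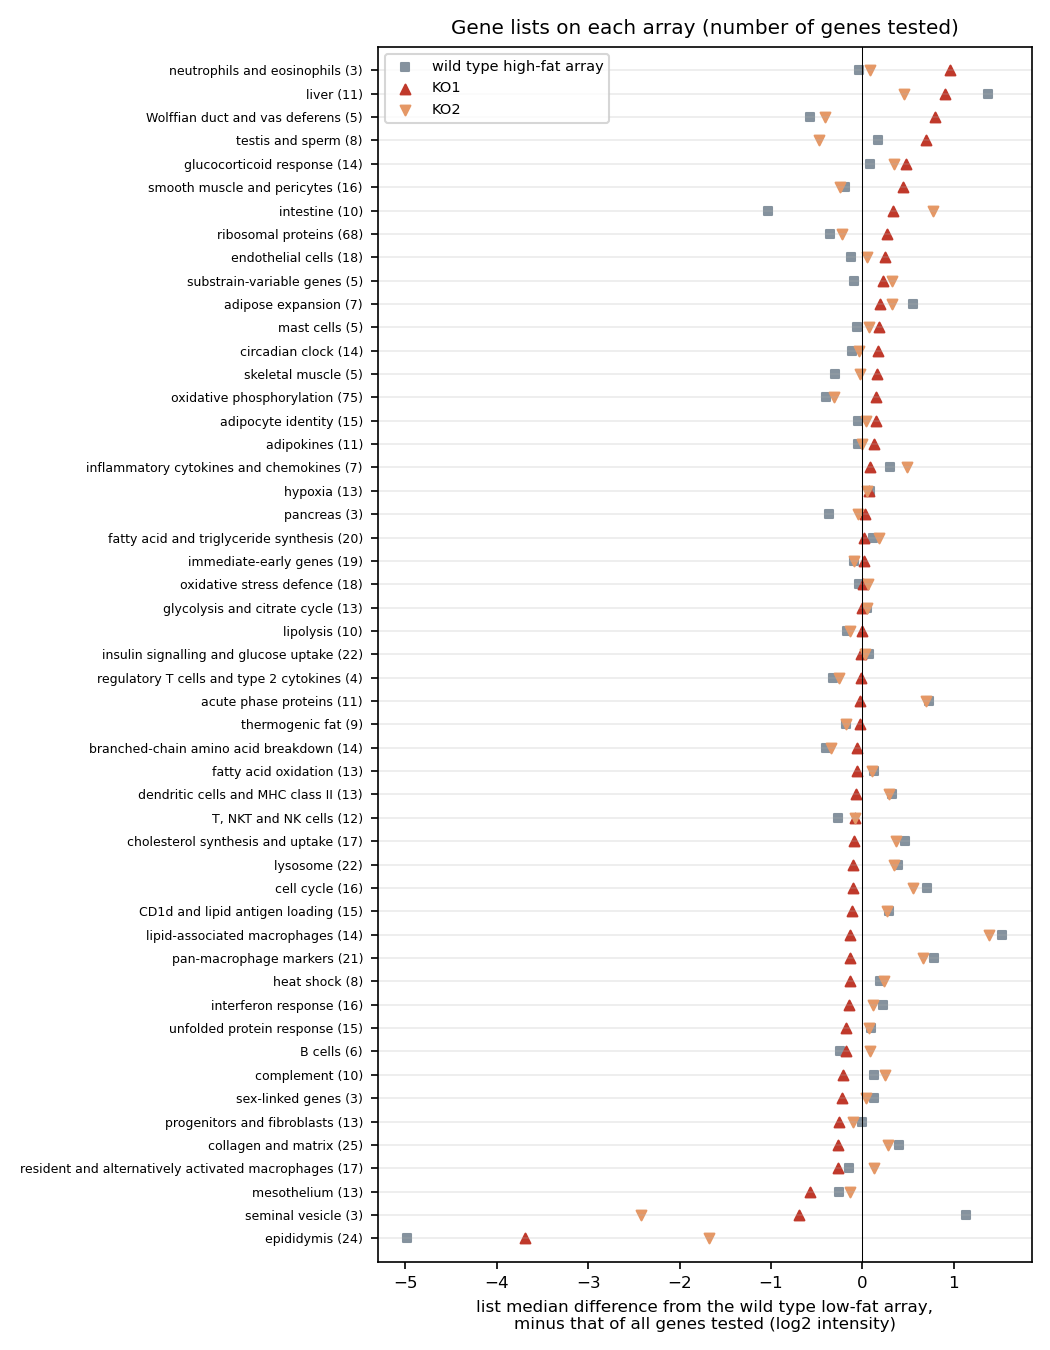
Median difference of each list's tested genes from the wild type array, relative to the median of all genes tested on the same array, in log2 intensity, for KO1, KO2 and the wild type high-fat array (number of genes tested in brackets). The epididymis list is far to the left on all 3 arrays, and macrophage lists are right of 0 on KO2 and left of it on KO1.

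Over all 52 lists, 726 genes were tested, and 51 lists had at least 3 tested genes. With limma, 5 list genes passed, namely Cd1d1 and the 4 epididymal genes. Outside the epididymal list, 13 of 702 list genes had an unadjusted p under 0.05. When arrays were centred on the median of their tested genes, the sign of the unadjusted median turned in 16 of the 51 lists on KO1 and in 0 on KO2. Quantile normalization turned it in 7 and 6.

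Gene families were also taken by symbol alone, without hand-picked members, and 193 had at least 8 tested genes. The families highest on both were Vmn (9 vomeronasal receptor genes, relative medians 1.11 on KO1 and 0.51 on KO2), Olfr (21 olfactory receptor genes, 0.73 and 0.33) and Krtap (10 keratin-associated protein genes, 0.59 and 0.22), followed by Ifi and Cyp with 0.13 and 0.09 on KO1. The families lowest on both were Defb (9 defensin genes, −2.99 and −1.41) and Wfdc (10 protease inhibitor genes, −0.82 and −0.20), followed by Abca, Ift and Utp with −0.18, −0.11 and −0.14 on KO1. These relative medians kept their sign after quantile normalization, while centring of the arrays cannot change a relative median. Without the shift the medians of Ifi and Cyp on KO1 were −0.04 and −0.08. Sensory receptor and keratin-associated genes are hardly transcribed in fat, and their probe sets lie at the low end of the intensity range. Among 990 olfactory receptor genes with a value, tested or not, 73 were at least 1.5-fold higher on both KO arrays and 0 were lower. Over all 18820 genes with a value, 160 (0.85%) were higher and 127 (0.675%) lower. The filter left out 70 of the 73.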

How the data were processed

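RNA of epididymal adipose tissue was read on 4 whole-transcript arrays, each from 100 ng of pooled RNA. Per the submitters' processing notes, RMA was run in R 2.15.0. The authors deposited 1 linear intensity per probe set and array, from 5.71 to 20092. For the array design, a genome build is not given in the sources used here. Since the planned tests were for log2 values, log2 of the deposited intensity was taken first, with no further normalization. Symbols came from the platform annotation; 1881 probe sets with several symbols and 12457 with none were not used as genes, and Entrez IDs of 21185 probe sets matched the RefSeq gene table (GRCm38.p6). Genes at or above the 40th percentile of mean log2 intensity were tested.

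The model was fitted with limma 3.58.1 under R 4.3.3: 1 mean per group, eBayes without trend, two-sided tests and Benjamini-Hochberg adjustment over all genes tested. Residual degrees of freedom numbered 1, between KO1 and KO2, with a prior of 4.62, so the wild type was assumed to vary like that pair. The steps were tested on simulated data. Counts by size, list medians and family medians have no test. Alternatives covered scaling, the probe set per gene, the filter, the variance model, thresholds, pooling of the wild type arrays and each KO array left out.

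Genes named are those past the limma threshold, the highest and lowest on both KO arrays and on each, those beyond both wild type arrays, and the first and most extreme members of each of 52 lists. Members and lists were chosen with earlier results of these data known. Further members were named as examples after their values were seen. Plots were made with matplotlib 3.10.9 and Python 3.11.15.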

Additional observations from a re-analysis of the deposited data

Results flagged for a closer look

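Probe sets with no listed gene symbol were outside the comparisons, and some of them differed on both KO arrays. Of 4886 such probe sets above the filter, 317 were at least 1.5-fold higher on both KO arrays than on the wild type array (low-fat), and 86 were lower. The share was larger than the 0.584% of tested genes that were higher on both. At 4-fold, 6 were higher and 0 lower. A run of probe sets with neighbouring numbers carried near-identical values. One of them, probe set 10563913, was at 5.88 on the wild type array (low-fat), 5.54 on the high-fat one, 8.11 on KO1 and 7.98 on KO2, and probe set 10564033 was at 5.79, 5.37, 8.01 and 7.67. What these probe sets read is not named here, and several may read copies of 1 sequence.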

How the results depend on the processing

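No paired analysis was possible because each wild type group has 1 array and no replicate number. With a KO array left out limma has no residual degrees of freedom and gave no test. The 5 limma calls became 0 without the filter on low signal, 2 with the 60th percentile filter (Cd1d1 and Lrmda), 3 with the mean of all probe sets and 1, Cd1d1, with both wild type arrays as one group. The 60th percentile filter left the 4 epididymal genes untested, and Cd1d1 had a limma adjusted p of 8.13e-05 with it. Without the filter on low signal the difference of Cd1d1 was −7.95 with a limma adjusted p of 0.0932. Genes higher on both KO arrays numbered 66 in the analysis as reported, 160 without the filter, 22 with the 60th percentile filter, 14 at 2-fold, and 218 to 626 with 1 KO array left out. Those lower on both numbered 87, and 50 with centred arrays, 54 with quantile normalization, 28 with the 60th percentile filter, 29 at 2-fold and 519 to 567 with 1 KO array left out. On KO1, higher genes went from 218 to 419 with centring, 383 with quantile normalization, 637 without the filter, 74 with the 60th percentile filter and 90 at 2-fold. Lower genes there went from 567 to 171, 230, 287 with the 60th percentile filter and 82 at 2-fold. On KO2, the 60th percentile filter and the 2-fold limit gave 411 and 189 higher and 277 and 119 lower genes. Beyond both wild type arrays, higher genes went from 39 to 90 without the filter, 13 with the 60th percentile filter, 12 at 2-fold and 72 to 156 with 1 KO array left out, and lower genes from 10 to 5 with either stricter limit and 34 to 391 with 1 KO array left out. A stricter limit or filter keeps fewer genes by construction; the cause of the other shifts was not tested. Of the values of named genes under the alternatives for scaling, probe set, filter, trend and left-out KO array, 543 were counted as unchanged. A further 8 were no longer past the limma threshold, 2 newly passed and 0 reversed. The 543 include values with a KO array left out, which have no threshold and could not fail the rule used for them. Beside the 8 lost calls, the robust variance model lost Spint4 and the pooled wild type arrays lost the 4 epididymal calls. Signals under the array median limit what the lymphocyte markers and the low ends of the epididymal genes can show.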

Other observations

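Probe sets that carry several gene symbols were not named and entered no count of genes. Of 1180 above the filter, 180 were at least 1.5-fold higher and 10 lower on both KO arrays. Among the genes tested, 0.584% were higher and 0.77% lower on both. The share of higher probe sets was thus larger, and that of lower ones was near the share of genes. The 6 lowest had near-identical values. Probe set 10504148, picked by size, was at 8.20 on the wild type array (low-fat), 8.40 on the high-fat one, 6.18 on KO1 and 6.11 on KO2. How many of the 1180 did not overlap between genotypes was not counted. Probe set 10512327 was at 7.96, 8.08, 5.99 and 6.02 in the same order.

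Among the 7528 genes below the filter, 94 were at least 1.5-fold higher and 40 lower on both KO arrays, and 7 were lower by at least 4-fold. Over all 18820 genes with a value, 0.85% were at least 1.5-fold higher and 0.675% lower on both. Of the 94, 70 were olfactory receptor genes. Values under the array median have no reliable order. The filter uses the mean of all arrays, however, so a gene high on the wild type array alone could fall below it. Of the 66 epididymal genes with a value, 24 were tested, while 32 lay under the array median on the wild type array.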
